A study of Mus musculus with 6 samples.

Results

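The Myddosome and IKK complex genes are a set of 10 genes chosen by function: the adaptors Myd88 and Tirap, the kinase genes Irak1, Irak2, Irak3 and Irak4, the ubiquitin ligase gene Traf6, and the IKK genes Ikbkb, Ikbkg and Ikbke. A gene was taken from the array table when the platform annotation gave its symbol alone for a feature. By this rule 9 of the 10 were measured, each by 1 feature, of 19818 genes and 21542 features tested in all, and Irak4 was not analysed here.

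The cells were mature splenic B cells of the mouse. MYD88_L265P cells carried a retrovirus with MYD88 bearing the L265P substitution, IKK_K171E cells a retrovirus with an IKK construct bearing K171E, and EV cells the empty vector. All the cells had been activated before infection, held a green fluorescent protein marker by which they were sorted, and were kept in mitogen for 36 hours after infection and out of it for the last 24 hours. Each group had 2 arrays (Affymetrix mouse ST 1.0), which the labels call biological replicates. Neither the IKK subunit, the species of the introduced sequences nor the strain, age and number of the mice is given in the labels, and an introduced gene came on top of the cell's own copies. The p-values therefore set group differences against the spread between these arrays.

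The Myddosome is the assembly that forms when a Toll-like or interleukin-1 receptor is engaged: MyD88 binds the receptor's tail, sometimes through the bridging adaptor TIRAP, and stacks IRAK4 and then IRAK1 or IRAK2 on itself. The IRAK kinases engage TRAF6, whose ubiquitin chains recruit the kinase TAK1 and the IKK complex. The complex, made of the kinases IKK alpha and IKK beta (Ikbkb) and the regulatory subunit NEMO (Ikbkg), marks the inhibitors of NF-kB for degradation. L265P in MYD88 is a recurrent activating change of human B cell lymphomas, and K171E is known as an activating change in the kinase domain of IKK beta. MyD88 and the IKK complex thus stand at the top and near the end of the same chain, and the arrays record the transcripts of the chain itself.

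Markers of B cells were read in all arrays. Of 10 B cell marker genes 9 were measured, with log2 signals from 9.81 to 13.0 over all arrays. All 9 read lower than in EV in both arrays of MYD88_L265P (median log2 fold change -0.52) and of IKK_K171E (median -0.38), as did 47.9% and 28.4% of all features. At a limma adjusted p below 0.05, 5 of the 9 were lower in MYD88_L265P, where 7.33% of all features were, and 1 (Cd22) in IKK_K171E, where 0.413% were. At an unadjusted limma p below 0.05 there were 9 and 6, beside 38.7% and 17.1% of all features. Because the RNA came from bulk sorted cells, fewer cells of a type and less RNA per cell cannot be told apart. Replicate arrays correlated across features at 0.989 to 0.995, and arrays of different groups at 0.967 to 0.990.

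Promoters are shown for the endogenous member that passed the test in MYD88_L265P, Tirap, and for the member with the lowest adjusted p in IKK_K171E against EV, Irak2. Each is the 250 bases before a RefSeq start (build GRCm38.p6), and capitals mark CG dinucleotides, which are frequent in the promoters of broadly expressed genes. The Tirap promoter lies at chr9:35199906-35200155 on the minus strand and the Irak2 promoter at chr6:113638217-113638466 on the plus strand.
Tirap: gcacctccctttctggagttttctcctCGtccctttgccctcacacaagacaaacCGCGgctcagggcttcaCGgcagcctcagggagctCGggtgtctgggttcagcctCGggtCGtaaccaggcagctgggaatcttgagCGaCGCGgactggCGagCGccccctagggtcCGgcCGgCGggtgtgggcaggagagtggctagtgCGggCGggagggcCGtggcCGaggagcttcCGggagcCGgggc
Irak2: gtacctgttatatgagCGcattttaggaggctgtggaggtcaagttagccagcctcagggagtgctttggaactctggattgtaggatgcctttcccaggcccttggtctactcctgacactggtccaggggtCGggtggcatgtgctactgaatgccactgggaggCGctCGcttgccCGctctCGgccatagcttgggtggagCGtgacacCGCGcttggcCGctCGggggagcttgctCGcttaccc
The Tirap window printed is the one further into the gene of 2 overlapping windows, and the other (chr9:35199966-35200215) holds 17 CG dinucleotides. Those printed hold 21 for Tirap and 12 for Irak2, against a median of 6 over all 32851 promoters of this length. The 15 promoters of 9 members held 0 to 21 (median 13), with that of Ikbke at 4 and that of Myd88 at 9. Ikbkb had none in the table.

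Values are log2 signals as deposited, and a gene passed, or was called, when its limma p-value adjusted over all features was below 0.05. In MYD88_L265P over EV, 2 of 9 members passed, both higher (Myd88 and Tirap), against 16.6% of all features (9.32% higher and 7.33% lower). In IKK_K171E over EV, limma called 0 of 9, against 1.37% of all features (0.956% higher and 0.413% lower), and 2 members (Ikbkb and Irak2) had an unadjusted p below 0.05, as did 17.1% of all features. In MYD88_L265P over IKK_K171E, 3 of 9 passed (Myd88 and Tirap higher, Ikbkb lower), against 1.75% of all features (0.873% higher and 0.877% lower). These counts include the genes nearest to the constructs. Without Myd88 and Ikbkb, 1 of 7, 0 of 7 and 1 of 7 members passed in the same order (14.3%, 0% and 14.3%). The first of these shares lies below the 16.6% of all features. The median log2 fold change of the 9 members was 0.05 in MYD88_L265P over EV, where that of all features was -0.11. It was -0.13 in IKK_K171E over EV (all features -0.04) and 0.28 in MYD88_L265P over IKK_K171E (all features -0.05). The comparisons with EV share its arrays.

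Myd88 was the most changed member. Its log2 signal was 12.25 and 12.31 in MYD88_L265P, 9.43 and 9.14 in IKK_K171E, and 9.30 and 9.35 in EV. Both MYD88_L265P arrays stood far above the other 4, which overlapped. The signal rose by 2.96 on the log2 scale over EV (7.76-fold, SE 0.115, limma adjusted p = 2.81e-04). The increase over IKK_K171E was 2.99 (7.97-fold, adjusted p = 2.45e-04). Over EV this was the 7th largest increase of the 21542 features, and over IKK_K171E the 3rd. Transcripts of the introduced and the resident gene cannot be told apart by this feature. In IKK_K171E against EV the log2 fold change was -0.04 (95% interval -0.31 to 0.23), so a change of 1.5-fold lay outside the interval.

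Ikbkb, the gene of the catalytic IKK beta kinase, read 9.69 and 9.68 in MYD88_L265P, 11.35 and 10.68 in IKK_K171E, and 9.98 and 10.22 in EV. The 3 groups did not overlap, with IKK_K171E highest and MYD88_L265P lowest. The labels do not name the subunit of the IKK construct, and if it is IKK beta, introduced and resident transcripts cannot be told apart by this feature. In IKK_K171E over EV the log2 fold change was 0.91 (SE 0.205, 95% interval 0.43 to 1.40, limma adjusted p = 0.0848), the 166th largest of all features, and it missed the threshold of 0.05. The IKK_K171E replicates lay 0.67 apart on the log2 scale, a wider gap than that of 99.1% of features in this group. Without IKK_K171E replicate 2 the log2 fold change was 1.25 and passed (adjusted p = 0.0289), and without IKK_K171E replicate 1 it was 0.58 (adjusted p = 0.252). MYD88_L265P lay below IKK_K171E by a log2 fold change of -1.33 (SE 0.205, adjusted p = 0.0305), at rank 21515 of 21542 from the largest increase. That difference lost its call without IKK_K171E replicate 1 (-0.996, adjusted p = 0.0573). It was also lost with replicate 1 or replicate 2 of MYD88_L265P left out (adjusted p = 0.141 and 0.222). Against EV, MYD88_L265P had a log2 fold change of -0.42 in Ikbkb (95% interval -0.90 to 0.07, adjusted p = 0.175).

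**Figure D1:**
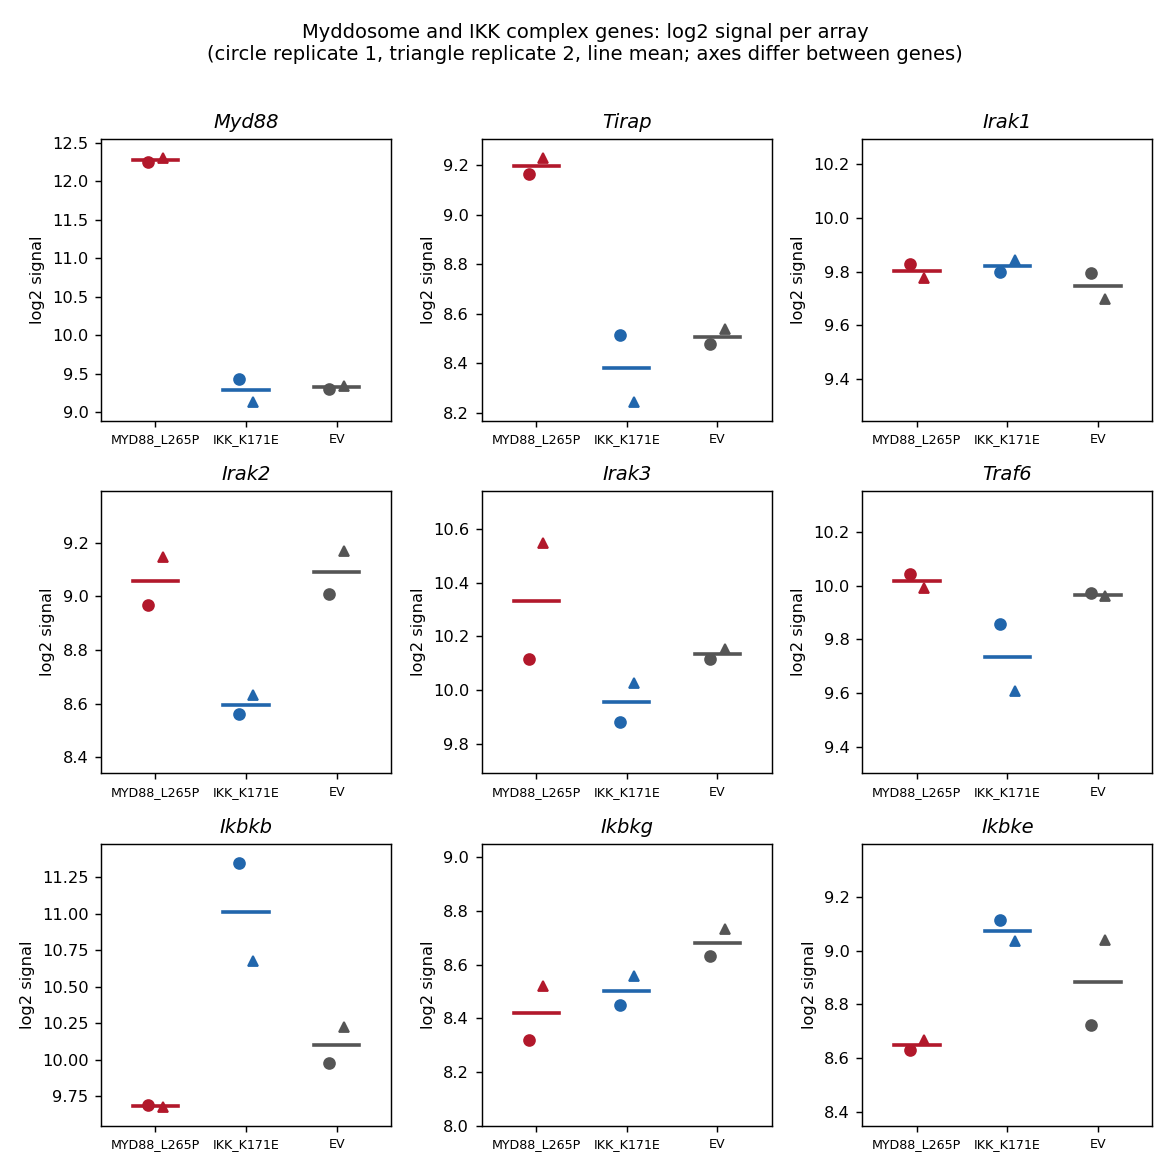
Log2 signal of the 9 measured genes in each array, with a panel per gene and its own vertical axis. Circles are replicate 1, triangles replicate 2 and lines the group means. Myd88 and Tirap stand highest in MYD88_L265P, Ikbkb stands highest in IKK_K171E with its replicates 0.67 apart, and Irak1 spans 0.15 over all arrays.

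In IKK_K171E most markers of monocytes and macrophages read above EV, as Ikbkb did. Of 15 such genes 14 were measured, and 12 of the 14 had a log2 fold change above 0 in IKK_K171E over EV (median 0.62). The test called Csf1r, the CSF1 receptor gene, higher (1.22, limma adjusted p = 0.0383) and Adgre1, the gene of F4/80, lower (-1.17, adjusted p = 0.0361). Of all features 0.956% were called higher and 0.413% lower. In MYD88_L265P over EV, 8 of the 14 were above 0 and 6 below (median 0.09), where Ikbkb was at -0.42. The test called 1 of them, Adgre1, lower, as it did 7.33% of all features. In MYD88_L265P over IKK_K171E, where Ikbkb was at -1.33, all 14 were below 0 (median -0.57). Ccr2 alone was called lower there, as were 0.877% of all features. The summed linear signal of the 14 was 8908 to 10330 in MYD88_L265P, 16256 to 18327 in IKK_K171E and 10985 to 12110 in EV. Such a sum rests most on the strongest genes. Lyz2, the strongest of the 14 in both IKK_K171E arrays, read 12.96 and 12.89 there and 11.09 and 11.95 in EV. It was not called in IKK_K171E over EV (1.41, limma adjusted p = 0.0501). None of the 14 was at 0, the lowest log2 signal being 6.44 for Ms4a7 in EV, and there is no detection call. Cd68, a lysosomal membrane protein gene of macrophages, followed Ikbkb most closely of all genes whose signal spanned at least 1 on the log2 scale (Pearson r = 0.987 over the 6 arrays). It read 10.51 and 10.36 in MYD88_L265P, 11.68 and 11.18 in IKK_K171E, and 10.48 and 10.84 in EV. The next closest were Prkch, a protein kinase C gene, Tspan33, a tetraspanin gene of activated B cells, Fscn1, which encodes the actin bundler fascin, and Tgfbi (r from 0.964 to 0.982). These coefficients describe 6 arrays that fall into 3 groups, and in each of these genes IKK_K171E replicate 1 read above replicate 2. Of 8 dendritic cell markers, Flt3 and Itgax were also called higher in IKK_K171E than in EV, as were 0.956% of all features. Of the 8, 6 overlapped EV, 6 were above 0 and 2 below, and the median log2 fold change was 0.06. Among all features 46% did not overlap EV. Their summed linear signal was 1841 to 1987 in MYD88_L265P, 3556 to 3678 in IKK_K171E and 2696 to 2702 in EV. Flt3, the strongest of the 8 in every array, read 10.96 and 10.90 in IKK_K171E and 10.18 and 10.19 in EV. Of the measured T cell (8), NK cell (8) and neutrophil (9) markers limma called 0 in IKK_K171E against EV, with 1, 4 and 2 at an unadjusted p below 0.05. Of all features 17.1% had such a p-value. Log2 fold changes above 0 were seen in 8, 6 and 5 of these markers, with list medians of 0.17, 0.14 and 0.02. The part of the markers in the Ikbkb signal was not tested.

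**Figure D2:**
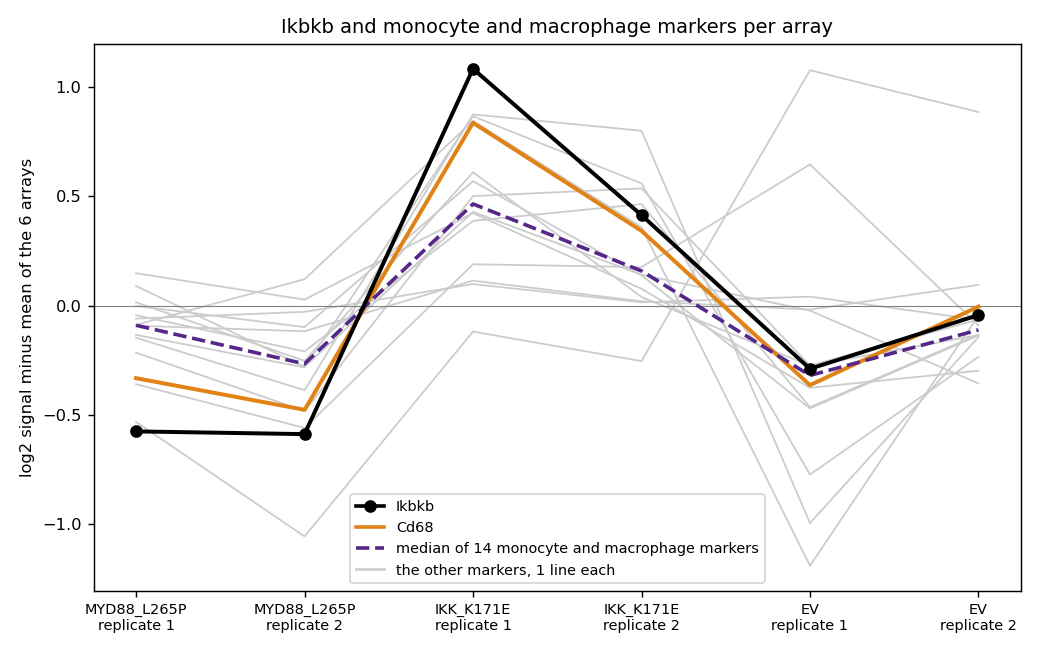
Log2 signal of Ikbkb and of 14 monocyte and macrophage markers in each array, each minus its own mean over the 6 arrays. Lines only join the points of a gene or of the median. Ikbkb and Cd68 are highest in IKK_K171E replicate 1 (1.08 and 0.84 above their means) and next highest in IKK_K171E replicate 2 (0.41 and 0.34), and the marker median follows at 0.47 and 0.16. That median is -0.09 and -0.27 in MYD88_L265P and -0.32 and -0.11 in EV. Ikbkb is at -0.58 and -0.59 in MYD88_L265P, its lowest group, and at -0.29 and -0.04 in EV.

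Among the 7 members other than Myd88 and Ikbkb, Tirap alone passed the test. In MYD88_L265P over EV that is 14.3%, beside 16.6% of all features, and over IKK_K171E 14.3% beside 1.75%. The product of Tirap is the membrane-bound adaptor that brings MyD88 to TLR2 and TLR4. Tirap read 9.16 and 9.23 in MYD88_L265P, 8.51 and 8.24 in IKK_K171E, and 8.48 and 8.54 in EV. Both MYD88_L265P arrays lay above all the others, while IKK_K171E and EV overlapped. The signal rose by 0.69 over EV (1.61-fold, SE 0.111, 95% interval 0.43 to 0.95, limma adjusted p = 0.0114). The increase over IKK_K171E was 0.82 (1.76-fold, SE 0.111, adjusted p = 0.0201). Over EV, 93.3% of features had a smaller absolute change. The promoter printed first above is that of Tirap. The call over EV was lost with either MYD88_L265P array left out, at 0.72 (adjusted p = 0.0696) for the first and 0.66 (adjusted p = 0.0907) for the second. Over IKK_K171E it was lost when any of the 4 arrays compared was left out, with log2 fold changes of 0.68 to 0.95 and adjusted p-values of 0.0518 to 0.204. In the same arrays 3 of 6 plasma cell markers were called higher in MYD88_L265P than in EV (Prdm1 by 2.47, Jchain by 2.22, Xbp1 by 1.26). Of all features 9.32% were. The summed linear signal of the 6 was 8241 to 10437 in MYD88_L265P and 3539 to 4512 in EV. Sdc1, the gene of the plasma cell surface marker CD138, had a log2 fold change of -0.12 (adjusted p = 0.455). The part of these markers in the Tirap signal was not tested.

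The IRAK genes differed in how far they varied. Irak1, the kinase that joins TRAF6, was the steadiest member. It read 9.83 and 9.78 in MYD88_L265P, 9.80 and 9.84 in IKK_K171E, and 9.79 and 9.70 in EV, a range of 0.15 over all arrays. Its 95% intervals were -0.15 to 0.26 for MYD88_L265P over EV, -0.13 to 0.28 for IKK_K171E over EV, and -0.23 to 0.19 for MYD88_L265P over IKK_K171E. Irak2, a relative of Irak1 that sustains signalling, read 8.97 and 9.15 in MYD88_L265P, 8.56 and 8.63 in IKK_K171E, and 9.01 and 9.17 in EV. Both IKK_K171E arrays were below the other 4, which overlapped. The log2 fold change of Irak2 was -0.49 in IKK_K171E over EV (SE 0.105, 95% interval -0.74 to -0.25), with 94.3% of features changed less. It missed the threshold (limma adjusted p = 0.0751), as did the difference of 0.46 between MYD88_L265P and IKK_K171E (adjusted p = 0.0892). With the replicate numbers of the descriptions as a block, the first of these passed (adjusted p = 0.0442). Irak3 encodes IRAK-M, a brake on the Myddosome known mainly from macrophages. It read 10.11 and 10.55 in MYD88_L265P, 9.88 and 10.03 in IKK_K171E, and 10.12 and 10.15 in EV. Its IKK_K171E arrays were the lowest. The MYD88_L265P replicates lay 0.43 apart, more than in 97.9% of features of that group. Irak3 passed in no comparison (adjusted p = 0.334 in MYD88_L265P over EV, 0.587 in IKK_K171E over EV, and 0.227 in MYD88_L265P over IKK_K171E).

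Traf6, the ubiquitin ligase gene below the IRAK kinases, read 10.04 and 9.99 in MYD88_L265P, 9.86 and 9.61 in IKK_K171E, and 9.97 and 9.96 in EV. IKK_K171E was again the lowest group, and the log2 fold changes were 0.05 for MYD88_L265P over EV, -0.23 for IKK_K171E over EV and 0.28 for MYD88_L265P over IKK_K171E (adjusted p = 0.737, 0.323 and 0.217). The regulatory subunit gene Ikbkg read 8.32 and 8.52 in MYD88_L265P, 8.45 and 8.56 in IKK_K171E, and 8.63 and 8.73 in EV. EV was the highest group, but neither difference from it passed (adjusted p = 0.114 for MYD88_L265P and 0.444 for IKK_K171E). The order of the groups for Ikbkg was not that for Ikbkb, which stood highest in IKK_K171E. Ikbke, an IKK-related kinase gene of the interferon response, read 8.63 and 8.67 in MYD88_L265P, 9.12 and 9.03 in IKK_K171E, and 8.72 and 9.04 in EV. MYD88_L265P was the lowest group, and IKK_K171E overlapped EV. Its log2 fold change in MYD88_L265P over IKK_K171E was -0.43 (SE 0.119, 95% interval -0.71 to -0.15, adjusted p = 0.136).

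For most members that did not pass, the intervals were narrow, though some of them excluded 0. In MYD88_L265P over EV the 95% interval of all 7 such members lay within a 2-fold change in either direction, and that of 6 within 1.5-fold. In IKK_K171E over EV the interval lay within 2-fold for 8 of 9, the exception being Ikbkb, and within 1.5-fold for 7. In MYD88_L265P over IKK_K171E it lay within 2-fold for all 6 and within 1.5-fold for 3. There the intervals of Irak2 (0.21 to 0.71), Irak3 (0.03 to 0.72), Traf6 (0.03 to 0.53) and Ikbke (-0.71 to -0.15) excluded 0. In this comparison 7 of the 9 members had an unadjusted limma p below 0.05, beside 19.6% of all features. In MYD88_L265P over EV 3 of the 9 did, beside 38.7%.

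**Figure D3:**
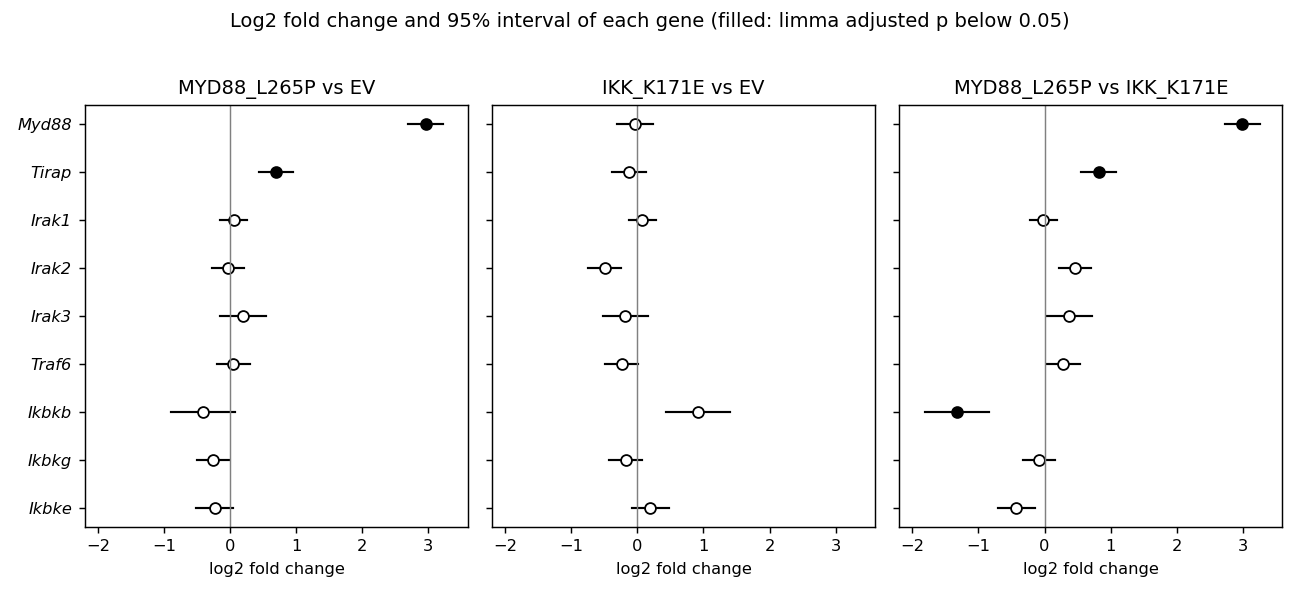
Log2 fold change of each measured gene in the 3 comparisons. Points are estimates, bars 95% intervals from limma, and filled points have an adjusted p below 0.05. Myd88 (2.96 and 2.99) and Tirap (0.69 and 0.82) are filled in both comparisons of MYD88_L265P, Ikbkb (-1.33) in MYD88_L265P against IKK_K171E, and no point is filled in IKK_K171E against EV.

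The genes whose signal was most like that of Myd88 over the 6 arrays were Tent5c, a poly(A) polymerase gene, Fam81a, Pcbd1, the gene of a pterin dehydratase and transcriptional cofactor, Itm2a and Tmed6, of the family that carries cargo between the endoplasmic reticulum and the Golgi (Pearson r from 0.993 to 0.999). Tent5c read 9.80 and 9.94 in MYD88_L265P, 8.41 and 8.26 in IKK_K171E, and 8.31 and 8.40 in EV. As for Myd88, these coefficients rest on the distance between the MYD88_L265P arrays and the other 4.

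The rest of the chain was described with 6 lists of signalling genes (80 genes, 69 measured). In MYD88_L265P over EV, 5 of the 69 rose and 12 fell. In IKK_K171E over EV 3 rose and limma called 0 lower. In MYD88_L265P over IKK_K171E 1 was higher and 6 were lower. At an unadjusted p below 0.05, 10 were higher and 22 lower in MYD88_L265P over EV, beside 38.7% of all features. Such counts were 15 and 11 in IKK_K171E over EV (17.1% of all features) and 5 and 19 in MYD88_L265P over IKK_K171E (19.6%). The shares called were 24.6%, 4.35% and 10.1%, beside 16.6%, 1.37% and 1.75% of all features. The count of 17 in MYD88_L265P over EV fell to 9 when EV replicate 2 was left out, and to 1 and 0 when MYD88_L265P replicates 1 and 2 were. The 3 in IKK_K171E over EV became 1 without EV replicate 2, and 0 without IKK_K171E replicate 1 or without either MYD88_L265P array. The 7 in MYD88_L265P over IKK_K171E became 0 when any array of these groups was left out. With the numbers of the titles as a replicate block, 8 of the 17 calls in MYD88_L265P over EV were lost (Birc2, Il18r1, Irf5, Malt1, Sigirr, Tlr1, Tlr9 and Tnfaip3), and 14 list genes passed in all. That block left EV replicate 1 alone under its title number, so in effect only EV replicate 2 entered the comparisons with EV. With only the 2 groups compared, all 3 calls in IKK_K171E over EV were lost (adjusted p = 0.073 for Cd40 and Tnfaip3, 0.0937 for Irak1bp1).

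Among 10 measured receptors that use MyD88, 3 were lower in MYD88_L265P than in EV, as were 7.33% of all features. These 3 were Tlr9, the endosomal sensor of CpG DNA (-0.54), Tlr1 (-0.46) and Il18r1, an interleukin-18 receptor chain (-0.35). With the block of the titles they missed the threshold (adjusted p = 0.0697 for Tlr9, 0.102 for Tlr1 and 0.0954 for Il18r1). Setting all arrays to a common median also ended the call of Il18r1 (-0.26, adjusted p = 0.0888), as did quantile normalization (-0.21, adjusted p = 0.157). In IKK_K171E over EV these 3 had log2 fold changes of -0.35, -0.08 and 0.31, and did not pass. Of 14 partners and brakes of MyD88 and the IRAK kinases, Irak1bp1, which encodes an IRAK1-binding protein, rose in MYD88_L265P (0.78, adjusted p = 0.0138) and in IKK_K171E (0.85, adjusted p = 0.0399). It read 8.68 and 8.46 in MYD88_L265P, 8.62 and 8.65 in IKK_K171E, and 7.95 and 7.62 in EV. All 4 arrays with a construct were above both EV arrays, which the 2 comparisons share. The call in IKK_K171E was lost with array weights (adjusted p = 0.0607) and with all features of the table (adjusted p = 0.0559). Irf5, a transcription factor activated by MyD88, and Sigirr, an inhibitory receptor of the interleukin-1 family, were lower in MYD88_L265P than in EV (-0.51 and -0.40). Both missed the threshold with the block of the titles (adjusted p = 0.0638 for Irf5 and 0.118 for Sigirr), and Sigirr with a common median (-0.31, adjusted p = 0.0634).

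Of 15 measured genes of TAK1 and the ubiquitin machinery, Ube2n, which makes the ubiquitin chains with TRAF6, rose by 0.98 in MYD88_L265P over EV (adjusted p = 0.00946). In IKK_K171E its log2 fold change was 0.69 (adjusted p = 0.0736). These values are from the brighter of 2 features of Ube2n, and the other is not given here. Tnfaip3, the gene of the deubiquitinase A20 that shuts this chain off, read 9.55 and 9.74 in MYD88_L265P, 10.32 and 9.96 in IKK_K171E, and 9.07 and 9.16 in EV. The groups did not overlap, and Tnfaip3 rose by 0.53 in MYD88_L265P over EV (adjusted p = 0.0414) and by 1.02 in IKK_K171E over EV (adjusted p = 0.0291). The call in MYD88_L265P was lost after quantile normalization (0.41, adjusted p = 0.0594), with all features of the table (adjusted p = 0.0504), with the block of the titles (0.44, adjusted p = 0.151) and with any EV or MYD88_L265P array left out. The difference between MYD88_L265P and IKK_K171E was -0.49 and did not pass (adjusted p = 0.137). Otud7b, another deubiquitinase gene, was lower in MYD88_L265P than in EV (-0.53). Of the 7 measured genes of other IKK-related kinases and their helpers, Hsp90aa1, a chaperone gene, rose in MYD88_L265P over EV (0.83). That is its brightest feature of 3, and the others are not given here. Chuk, the gene of IKK alpha, was not analysed here.

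Several genes directly below IKK and on the parallel routes to it differed between the constructs. Of 10 measured IKK substrates and NF-kB genes, Nfkbie, the gene of the inhibitor IkB epsilon, read 8.51 and 8.37 in MYD88_L265P, 9.46 and 9.30 in IKK_K171E, and 9.02 and 9.18 in EV. The groups did not overlap. Nfkbie was lower in MYD88_L265P than in EV (-0.66, adjusted p = 0.0122) and than in IKK_K171E (-0.94, adjusted p = 0.0152). Nfkbiz, which encodes the nuclear regulator IkB zeta, ran the other way, with log2 fold changes of 0.96 over EV (adjusted p = 0.0245) and 1.26 over IKK_K171E (adjusted p = 0.0357). The second call was lost after quantile normalization (adjusted p = 0.0523) and with all features of the table (adjusted p = 0.0536). Rel, the gene of the subunit c-Rel, was lower in MYD88_L265P than in EV (-0.60), and Nfkb2, the precursor of p52, was lower in MYD88_L265P than in IKK_K171E (-0.65). Of 13 measured genes on the B cell receptor and CD40 routes, 4 were lower in MYD88_L265P than in EV, as were 7.33% of all features. The largest changes were in the adaptor genes Traf5 (-0.67) and Traf1 (-0.62) and in Birc2, the gene of the ubiquitin ligase cIAP1 (-0.60, adjusted p = 0.0667 with the block of the titles). Traf1 (-0.77) and Birc2 (-0.86) were also lower in MYD88_L265P than in IKK_K171E. Cd40, the receptor gene, read 9.44 and 9.52 in MYD88_L265P, 10.65 and 10.60 in IKK_K171E, and 9.36 and 9.76 in EV. It rose by 1.06 in IKK_K171E over EV (adjusted p = 0.0244) and was lower in MYD88_L265P than in IKK_K171E (-1.15, adjusted p = 0.0152).

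**Figure D4:**
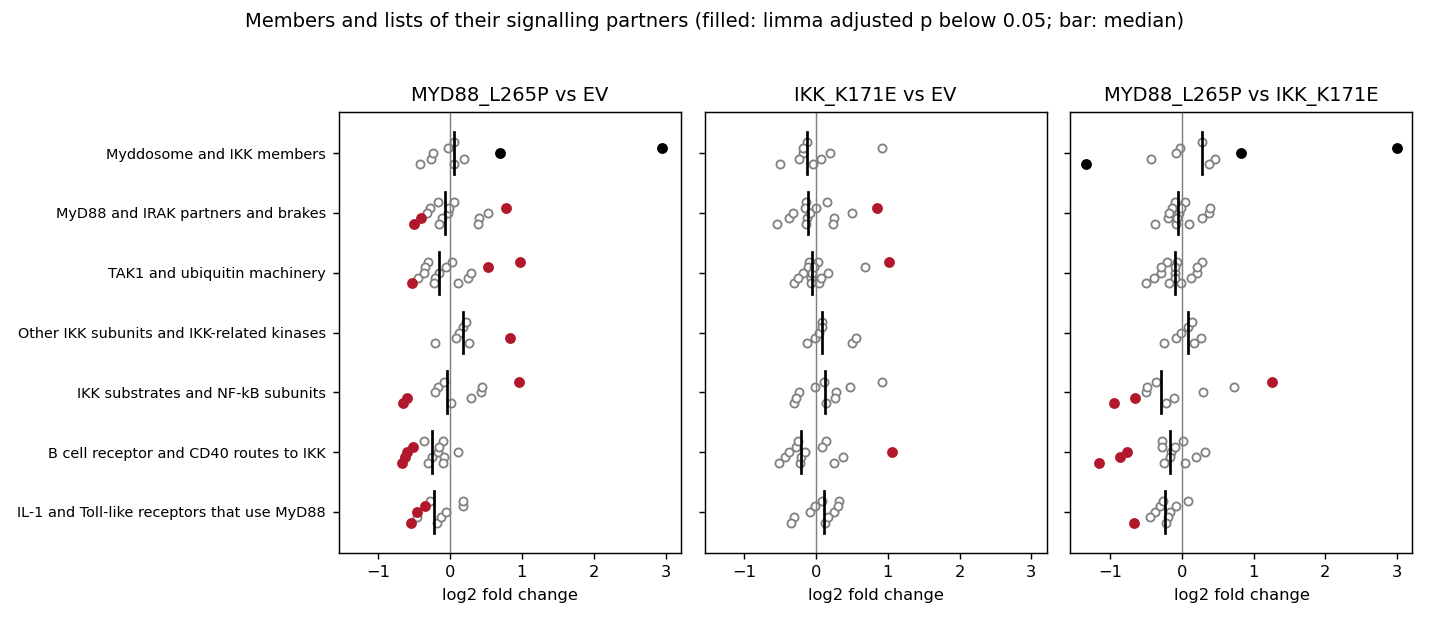
Log2 fold change of each measured gene in the member set and in 6 lists of signalling genes, for the 3 comparisons. Filled points have a limma adjusted p below 0.05, open points do not, and bars are list medians. In MYD88_L265P against EV filled points lie on both sides of 0 (5 higher and 12 lower outside the members), and in IKK_K171E against EV the 3 filled points are Cd40, Tnfaip3 and Irak1bp1.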

How the data were processed

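Gene expression was measured on 6 Affymetrix mouse ST 1.0 arrays, 2 each of MYD88_L265P, IKK_K171E and EV, grouped by the genotype labels. The values were deposited on a log2 scale, 1 per feature and array, after normalization by the authors. The submitters' processing notes name oligo and limma, with no method or genome build given in the sources used here. The values were used as deposited, with no filter, and precision is limited by the number of arrays.

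Of 24743 features, 21542 had exactly 1 symbol in the platform annotation, 1522 had several and 1679 had none. Group means were fitted to all 6 arrays with limma 3.58.1 in R 4.3.3 (3 residual and 4.17 prior degrees of freedom), without a replicate block. Two-sided p-values were adjusted by Benjamini-Hochberg over all 21542 features and called below 0.05. List genes were represented by their feature of highest mean signal. The procedure was tested on simulated data with independent noise in each array, drawn from the variance model that limma fitted here. That test therefore could not show departures from the model, and replicate effects shared by features were not part of it.

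The members and gene lists were chosen with earlier results of these data known. All members were named, with the called list genes (at most 3 of largest change per list, direction and comparison) and the 5 genes closest to Myd88 and to Ikbkb by correlation. The alternatives were replicate blocks, 2 normalizations, the variance model, array weights, a signal filter, the features and groups included, and each array left out. No other array shared the title number of EV replicate 1, so the block of the titles in effect left it out of the comparisons with EV.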

Additional observations from a re-analysis of the deposited data

How the results depend on the processing

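Under 10 alternatives to the reported fit, Myd88 and Tirap kept their calls in both comparisons of MYD88_L265P, and so did Ikbkb in MYD88_L265P against IKK_K171E. For Myd88 the log2 fold change over EV ran from 2.87 to 3.04, and from 2.93 to 2.98 with an array left out. Ikbkb in IKK_K171E over EV passed under none of the 10 (0.62 to 0.93, adjusted p = 0.0655 to 0.167). With an array left out it ran from 0.58 to 1.25.

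Members called with an array left out numbered 1 to 2 in MYD88_L265P over EV, 0 to 1 in IKK_K171E over EV and 1 to 3 in MYD88_L265P over IKK_K171E. The replicate numbers pair no arrays by the labels, and replicate differences correlated between groups at 0.105 to 0.211. With the numbers of the descriptions as a replicate block, 1 member (Irak2) passed in IKK_K171E over EV in place of 0. With the numbers of the titles as a replicate block, Irak2 passed in MYD88_L265P over IKK_K171E (adjusted p = 0.0385), which made 4 members in place of 3.

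All features called in IKK_K171E over EV numbered 295 in the reported fit, 626 and 609 with the replicate block of the descriptions and of the titles, 487 with a robust trended variance, 123 with array weights, 131 with all features of the table and 51 with only the 2 groups compared. In MYD88_L265P over IKK_K171E they numbered 377, against 1251 with the block of the titles and 592 with only the 2 groups. With an array left out they ran from 191 to 3554 in MYD88_L265P over EV (3586 reported), from 0 to 506 in IKK_K171E over EV and from 14 to 592 in MYD88_L265P over IKK_K171E. The cause was not tested.

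A member changed sign only in comparisons in which it had not passed. In MYD88_L265P over EV, quantile normalization gave -0.097 for Irak1 and -0.096 for Traf6, the block of the titles -0.021 for Traf6, and a common median 0.054 for Irak2. A common median also gave 0.053 for Irak1 in MYD88_L265P over IKK_K171E. With an array left out, the ranges that crossed 0 were -0.12 to 0.055 for Irak2 and -0.020 to 0.41 for Irak3 in MYD88_L265P over EV, -0.19 to 0.11 for Myd88 and -0.26 to 0.0062 for Tirap in IKK_K171E over EV, and -0.18 to 0.018 for Ikbkg and -0.046 to 0.0059 for Irak1 in MYD88_L265P over IKK_K171E. A common median moved the median feature of MYD88_L265P over EV to -0.02, against -0.11 as deposited, and made 77.7% of calls higher ones, against 56.0% as deposited. For list genes, run after the data were seen, 323 repeats kept the call, 107 lost it and 0 changed direction.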
